A study of Mus musculus with 43 samples.

Results

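Cardiomyocytes isolated from uninjured wild-type mouse hearts were compared with uninjured wild-type whole hearts by bulk RNA sequencing. The comparison used 6 of the 43 libraries of the series, chosen by their labels alone: 3 libraries labelled heart, total cells, wild type and homeostasis, and 3 labelled heart, cardiomyocytes, wild type and homeostasis. The series studies Q150X, a stop codon placed in the growth factor gene Vegfa with CRISPR/Cas9, at homeostasis and after myocardial infarction; no library of the main comparison carries it, and none was injured. RNA was taken with Trizol from tissue or isolated cells, and 2 µg went into each Illumina library. Strain, sex, age, the method of isolation and whether replicates came from separate animals are not given in the labels, so p-values measure the spread between these libraries only, which may be technical.

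The heart is a mixture. Cardiomyocytes fill most of its volume and hold most of its RNA, but by number most nuclei belong to endothelial cells, fibroblasts, mural cells (pericytes and smooth muscle), resident macrophages and a small number of glia and nerve cells. Isolation digests the matrix and separates the large myocytes from these smaller cells, and tissue digestion is known to switch on immediate early genes, the set of transcription factors and feedback regulators that cells transcribe within minutes of a stimulus without new protein synthesis. A whole-heart library therefore also holds cardiomyocyte RNA, and the contrast sets a fraction against a mixture that contains it.

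Total counts were 25948706, 28244624 and 26522848 in the whole-heart libraries and 25035490, 32095059 and 33833355 in the cardiomyocyte libraries, over 57010 genes in the deposited table. Levels are given as CPM, the usual depth-scaled count, on library sizes scaled by TMM (a factor per library that centres most genes), and log2 fold changes are cardiomyocytes minus whole heart, ± standard error, so that a negative value means a higher level in whole heart. A gene was called at a Benjamini-Hochberg adjusted p under 0.05 in edgeR's quasi-likelihood test. "Percent left" is the fitted level in cardiomyocytes as a percent of that in whole heart. Values of 3 libraries follow the labels' replicate numbers 1, 2 and 3, which are not known to pair a heart with a cardiomyocyte library.

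Whole-heart library 1 stood apart from the other 2. It held atrial RNA: the atrial regulatory light chain Myl7 was at 396 CPM in library 1 and had no count in libraries 2 and 3, and atrial natriuretic peptide Nppa was at 768, 23.2 and 22.3 CPM. It held fat RNA, with the adipokine Adipoq at 8.49, 0 and 0.247 CPM, more haemoglobin (0.185%, 0.0137% and 0.00891% of counts) and more fibroblast RNA, with 25 fibroblast genes summing to 4800 CPM against 1869 and 2066. Clock and immediate early genes differed too, with Arntl (the clock activator BMAL1) at 1.05, 12 and 13.6 CPM. Many results are given with and without it, but not all. Of 12 atrial genes, 10 passed the filter on low counts and only Adm, the vasodilator adrenomedullin, was called, a call lost when any single cardiomyocyte library was left out. Their median log2 fold change was −2.87, and −0.02 without library 1.

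Of 14491 genes tested, 2673 were higher in whole heart (18.4% of those tested) and 1956 were higher in cardiomyocytes (13.5%). Sizes were unequal: 1307 genes were called and at least 4-fold higher in whole heart (9.02%), and 97 were called and at least 4-fold higher in cardiomyocytes (0.669%). Without whole-heart library 1, 15000 genes were tested, of which 2792 (18.6%) were higher in whole heart and 2597 (17.3%) higher in cardiomyocytes. The median over all genes tested was −0.05, or 96.7% left. Scaling by library size alone shifted that median by −0.66, to −0.71, and the split became 7377 genes higher in whole heart and 253 higher in cardiomyocytes. Mitochondrially encoded RNA made up 39.6%, 50% and 41.5% of counts in cardiomyocytes and 26.8%, 30.1% and 30.3% in whole heart.

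Fibroblast genes were lower in the cardiomyocyte libraries. Of 25 genes, 24 were higher in whole heart and none was higher in cardiomyocytes. Their median was −4.23, or 5.33% left, against 96.7% over all genes. Fewer cells of a type and less RNA per cell cannot be told apart in bulk libraries, here or in any list below. Dcn, the collagen-binding proteoglycan decorin, was at 620, 319 and 328 CPM in whole heart and 20.1, 53.8 and 22.4 CPM in cardiomyocytes. The groups lay far apart, with the highest cardiomyocyte level in library 2 (−3.72 ± 0.45, adjusted p = 0.0013). Col1a1, the main fibrillar collagen chain, was at 201, 53.9 and 68.9 CPM against 5.6, 5.46 and 2.53 CPM (−4.58 ± 0.57, adjusted p = 0.00141). Tcf21, a transcription factor of cardiac fibroblasts, was nearly gone, at 14, 2.78 and 3.34 CPM against 0, 0.215 and 0.0724 CPM. Pdgfra, the growth factor receptor that marks these cells, kept 10.7% of its level. Whole-heart library 1 was the highest of the 3 for each of these 4 genes. Without it 24 of 25 were still higher in whole heart, with a median of −3.62. Ogn, the proteoglycan mimecan, was the exception, at 97.6, 113 and 115 CPM in whole heart and 133, 111 and 114 CPM in cardiomyocytes. It was named for its values, as are the exceptions to other lists.

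Secreted matrix and its enzymes followed the fibroblast genes. Of 23 tested (of 24), 21 were higher in whole heart, and the median was −2.76, or 14.7% left. Col8a1, a short-chain collagen, was at 24.6, 23.9 and 26.2 CPM against 3.77, 3.57 and 3.66 CPM, with almost no spread within either group (−2.76 ± 0.16, adjusted p = 6.27e-05). Fibronectin (Fn1) was more variable, at 106, 40.3 and 41.7 CPM against 10.2, 19.4 and 10.7 CPM (−2.22 ± 0.42). The matricellular genes Tnc (−1.63 ± 0.64) and Thbs1 (−0.35 ± 0.59) did not pass. Epicardial genes were sparse: 5 of 14 passed the filter, and Gpm6a, Aldh1a2 and Efemp1 were called, all 3 higher in whole heart, Gpm6a not without whole-heart library 1. Aldh1a2, which makes retinoic acid, had 4.76, 7.06 and 6.15 CPM against 0.188, 0.43 and 0 CPM.

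Endothelial genes were lower as well. All 22 genes of the endothelial identity list were called higher in whole heart, with a median of −1.81, or 28.5% left. Pecam1, the junctional adhesion molecule CD31, was at 190, 168 and 154 CPM in whole heart and 38.1, 67.8 and 31.3 CPM in cardiomyocytes (−1.90 ± 0.27, adjusted p = 0.00224). Cdh5, the cadherin of endothelial junctions, was at 232, 177 and 214 CPM against 54.6, 114 and 51.1 CPM (−1.50 ± 0.30, adjusted p = 0.0077). In both genes cardiomyocyte library 2 was the highest of its group and still below every heart. The 22 genes summed to 2054, 1698 and 1718 CPM in whole heart and to 435, 864 and 388 CPM in cardiomyocytes. Without whole-heart library 1, 13 of the 22 were called and the median was −1.67, with Cdh5 at −1.41 (adjusted p = 0.0834) and Kdr at −1.89 (adjusted p = 0.0512).

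Lists for parts of the vessel tree were described in the same way, and differences between lists were not tested. In the capillary fatty acid list 10 of 12 genes were higher in whole heart (median 29.1% left), among them Gpihbp1, which holds lipoprotein lipase on the capillary wall, at 57.9, 60.8 and 56.3 CPM against 10.4, 21.7 and 10.1 CPM. Lpl, the lipase itself, was higher in cardiomyocytes, at 2214, 4934 and 4815 CPM against 6552, 8217 and 8290 CPM (0.95 ± 0.29, adjusted p = 0.0367), and the fatty acid carrier Cd36 did not pass (0.64 ± 0.26). Of the 12 arterial and Notch genes 11 were higher in whole heart (median 31.9% left), with the gap junction gene Gja5 at 13% left and the ephrin ligand Efnb2 just outside the threshold (adjusted p = 0.0506). Endocardial genes were higher in whole heart in 8 of 10, with a median of −2.73, or −1.90 without whole-heart library 1. Plvap, the diaphragm protein of fenestrated vessels, was at 40.7, 2.63 and 4.33 CPM in whole heart, and Npr3, the natriuretic peptide clearance receptor, at 53.7, 8.13 and 9.7 CPM. Both were several times higher in library 1 than in the other hearts, and both lost their calls when any single cardiomyocyte library was left out. Edn1, the vasoconstrictor endothelin, went the other way, at 2.07, 2.19 and 2.04 CPM against 7.48, 6.58 and 5.68 CPM (1.65 ± 0.24, adjusted p = 0.00222). In the lymphatic list 6 of 8 were higher in whole heart, led by the chemokine gene Ccl21a and by Lyve1. Prox1, the lymphatic master regulator that heart muscle also expresses, was at 45.2, 55.2 and 47 CPM against 79.3, 103 and 109 CPM. Under library size alone no capillary or lymphatic gene was called higher in cardiomyocytes. Ccl21a has near-identical copies in the mouse genome and its counts are uncertain. Without whole-heart library 1, 8 of 12 capillary and 8 of 12 arterial genes were higher in whole heart. For endocardial and lymphatic genes it was 7 of 10 and 5 of 8.

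Receptors for VEGF were lower in cardiomyocytes when all 6 libraries were used, and for the ligand gene Vegfa no difference passed the test. Of 10 VEGF genes, 7 were higher in whole heart and none in cardiomyocytes, and without whole-heart library 1 the count was 4 and none, with neither Kdr nor Flt1 among them. Kdr, the main signalling receptor, was at 178, 257 and 248 CPM against 51.3, 110 and 42.9 CPM (−1.74 ± 0.34, adjusted p = 0.00697), and Flt1, the decoy receptor, at 174, 172 and 159 CPM against 42, 102 and 42.6 CPM (−1.43 ± 0.33, adjusted p = 0.0123). Flt1 was not called when any of whole-heart library 1, cardiomyocyte library 1 or cardiomyocyte library 3 was left out. Vegfa was at 134, 505 and 434 CPM in whole heart and 607, 503 and 545 CPM in cardiomyocytes. The low value was whole-heart library 1, and the groups overlapped (0.62 ± 0.40, adjusted p = 0.262; 0.24 without that library).

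Most mural genes were lower in cardiomyocytes. Of 16 pericyte genes 14 were higher in whole heart, with a median of −2.32, or 20% left. Pdgfrb, the receptor that recruits pericytes, was at 71.9, 49.4 and 56.4 CPM against 8.8, 17.6 and 8.07 CPM (−2.37 ± 0.31, adjusted p = 0.00158). Kcnj8 and Abcc9, the pore and the sulfonylurea receptor of the vascular potassium channel that senses ATP, went in opposite directions. Kcnj8 was at 34.5, 28.4 and 25.1 CPM against 3.58, 5.5 and 1.85 CPM, whereas Abcc9, which cardiomyocytes also express, was at 190, 293 and 326 CPM against 450, 539 and 548 CPM (0.93 ± 0.21, adjusted p = 0.0111). Under library size alone Abcc9 had 0.28 (adjusted p = 0.224), and no pericyte gene was called higher in cardiomyocytes. Ednra, the endothelin receptor, did not pass (0.09 ± 0.18). Rgs5, a G protein regulator of pericytes, was lower in all 3 cardiomyocyte libraries (−1.82 ± 0.38) but was not called without whole-heart library 1 (adjusted p = 0.0587). In the smooth muscle list 10 of 15 tested were higher in whole heart, with a median of −1.997, or −1.31 without whole-heart library 1. Myh11, the smooth muscle myosin heavy chain, was at 77, 29.3 and 39.2 CPM against 11.3, 15.2 and 14.7 CPM, while the phospholamban gene Pln and the actin bundler Synpo2, both also genes of heart muscle, were the 2 called higher in cardiomyocytes. Under library size alone no gene of the smooth muscle list was called higher in cardiomyocytes. Smooth muscle actin Acta2 did not pass (−0.97 ± 0.33).

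Nerve and glia were measured at low counts. In the Schwann and glial list 11 of 18 tested (of 20) were higher in whole heart, with a median of −1.84, or 27.9% left. Without whole-heart library 1, 9 were higher in whole heart and 2 in cardiomyocytes, with a median of −1.50. Mbp, the myelin basic protein, was at 6.23, 2.81 and 3.37 CPM against 0.141, 0.387 and 0.217 CPM (−4.03 ± 0.52, adjusted p = 0.00155). Scn7a, the sodium-sensing channel of glia, was at 27.1, 19.9 and 19.7 CPM against 6.03, 9.02 and 3.51 CPM. The glial transcription factor Sox10, at 3.54, 0.502 and 0.741 CPM against 0, 0.0859 and 0.362 CPM, was called (adjusted p = 0.0456) but lost the call without whole-heart library 1, whole-heart library 3, cardiomyocyte library 1 or cardiomyocyte library 2. The neurotrophin receptor gene Ngfr had no count in any cardiomyocyte library and was at least 13.7-fold higher in whole heart, taking 3 counts over the group as the floor. Art3, an ADP-ribosyltransferase gene, was called higher in cardiomyocytes (0.74 ± 0.17), but under library size alone no gene of that list was. Of 18 neuronal genes 6 passed the filter and 4 were higher in whole heart. Snap25, of the vesicle fusion machinery, had no count in cardiomyocytes and was at least 21.6-fold higher in whole heart. The noradrenaline enzyme Dbh was level between the groups (0.01 ± 0.30).

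Most genes of resident macrophages were low in the cardiomyocyte libraries. Of 20 resident macrophage genes 18 were higher in whole heart, with a median of −5.67; with the 2 genes that had no cardiomyocyte count at their bound the median was −5.27, or 2.6% left. F13a1, the coagulation factor XIII subunit made by tissue macrophages, was at 42.7, 37.2 and 37.5 CPM against 0.706, 0.645 and 0.507 CPM (−5.98 ± 0.20, adjusted p = 9.31e-06). Cd163, the haemoglobin scavenger receptor, was at 18.8, 13.7 and 16.3 CPM against 0.235, 0.387 and 0.434 CPM, and Lyve1, a hyaluronan receptor of resident macrophages and lymphatics, at 21.2, 21.2 and 16.6 CPM against 0.471, 0.516 and 0.651 CPM. These 3 genes were even within each group, and library 1 did not stand out. C1qa, a chain of complement C1q, kept 1.33% of its level. Folr2, the folate receptor of resident macrophages, had no cardiomyocyte count and was at least 42.2-fold higher in whole heart. Timd4, the phosphatidylserine receptor, had 1 count in cardiomyocytes, and its pooled ratio of 105 had a 95% counting interval of 18.6 to 4181. Gas6, a ligand of receptors for dying cells, did not pass (−0.78 ± 0.31).

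Other blood and immune lists were measured on fewer genes. All 7 dendritic and antigen presentation genes tested (of 12) were higher in whole heart, with a median of −5.17. The invariant chain Cd74 was at 99.2, 46.8 and 51.5 CPM against 1.74, 2.54 and 1.23 CPM; the class II genes H2-Aa and H2-Ab1 kept 2.57% and 2.27%, with reads that near-identical family members may share. In the monocyte list 5 of 6 tested were higher in whole heart, among them Lyz2, the macrophage lysozyme, at 120, 102 and 106 CPM against 1.55, 5.37 and 2.68 CPM; the 1 in the other direction was Nr4a1, also an immediate early gene. The recruited monocyte receptor Ccr2 had no cardiomyocyte count and was at least 30.6-fold higher in whole heart. Of 8 mast cell genes 4 were tested and of 10 B cell genes 3, and all of these were called higher in whole heart. The B cell list summed to 0.706, 0.387 and 0.434 CPM in cardiomyocytes, and 2 of the mast cell genes tested had no cardiomyocyte count. Genes this low in cardiomyocytes, here or in other lists, pass the filter through whole heart. Their direction was largely fixed by the filter. None of 15 T and NK cell genes passed the filter, and of 11 neutrophil genes only Csf3r did, so most genes of those cells were too low to test at this depth. Of 4 platelet genes tested (of 8) only Pf4 was called, higher in whole heart, and the list median was −3.81, or −0.96 without whole-heart library 1. The lowest percent left was 1.02% in both the platelet and the resident macrophage list. It was 1.96% in both the neutrophil and the monocyte list. A gene can thus be counted in more than 1 list. Of 5 red cell genes tested 4 were called, all higher in whole heart. The median of the 5 was −11.76, or −8.85 with the 2 genes that had no cardiomyocyte count at their bound. Without whole-heart library 1 the fitted median was −8.63, with no bound applied. The adult beta globin Hbb-bs was at 616, 72.9 and 45.1 CPM against 0.282, 1.03 and 0.362 CPM, and Hba-a2 had no cardiomyocyte count and was at 48.2, 4.17 and 3.34 CPM in whole heart, at least 463-fold higher. Whole-heart library 1 carries most of that bound. Globin copies are nearly identical and their single values are uncertain. Their sum was 0.0692% ± 0.1 of counts in whole heart and 4.68e-05% ± 3.01e-05 in cardiomyocytes (SD, n = 3; exact two-sided permutation p = 0.1, the smallest that 3 against 3 allow). Without whole-heart library 1 the whole-heart share was 0.0113%.

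**Figure D1:**
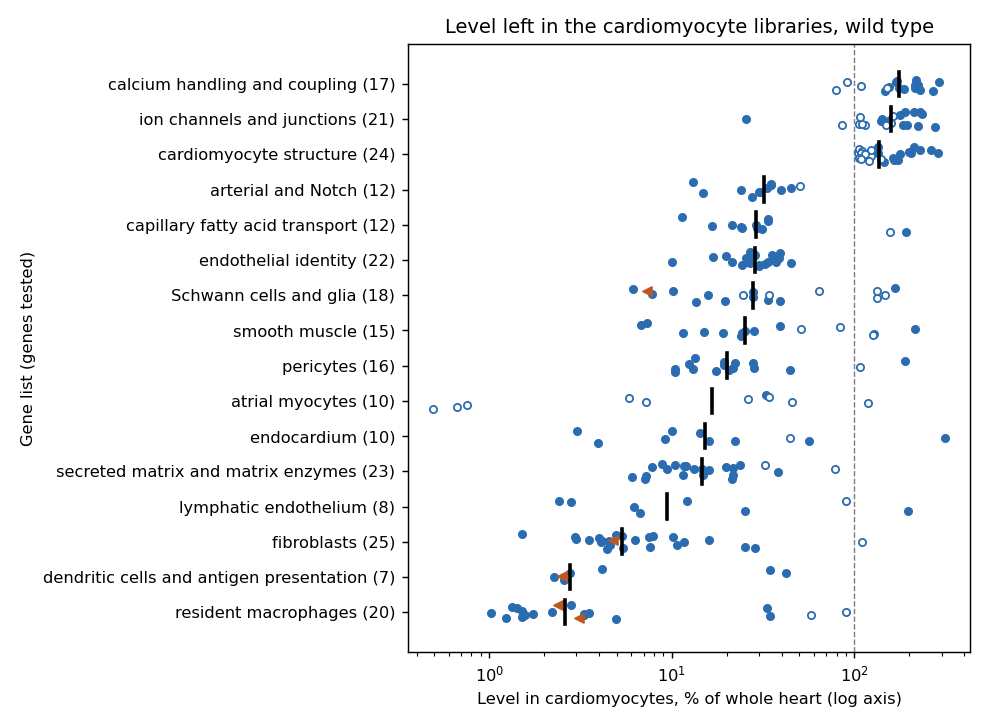
Level in the cardiomyocyte libraries as a percent of whole heart (log axis) for each gene tested in 16 lists, wild type; filled points were called, open points were not, triangles are genes with no cardiomyocyte count drawn at their upper bound, and black bars are list medians. Macrophage and dendritic medians lie at 2.6% and 2.78%, fibroblast at 5.33%, pericyte at 20%, endothelial at 28.5%, and the 3 cardiomyocyte lists at 137% to 176%.

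The residue was uneven between cardiomyocyte libraries. As a percent of the whole-heart mean, the summed endothelial list was 23.9%, 47.4% and 21.3% in cardiomyocyte libraries 1, 2 and 3, and the arterial list 27.2%, 50.5% and 23.9%. The fibroblast list was 10.6%, 13% and 9.13%, and the matrix list 17.6%, 22.5% and 12.7%. Library 2 was the highest in all 4. It also had the largest mitochondrial share, 50%. Macrophage genes did not follow: their sum was 18.5%, 19.5% and 22.5%, highest in library 3. Of those sums of 78.7, 83.2 and 95.7 CPM, Gas6, which was not called, held 62, 60.4 and 68.8 CPM. The dendritic list was 5.18%, 9.08% and 6.49%. Whole-heart library 1 had the highest sum of the 3 hearts in each of these lists, so percents of the mean are lower than against the other hearts. The fibroblast sums were 4800, 1869 and 2066 CPM in whole heart and 308, 378 and 266 CPM in cardiomyocytes.

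**Figure D2:**
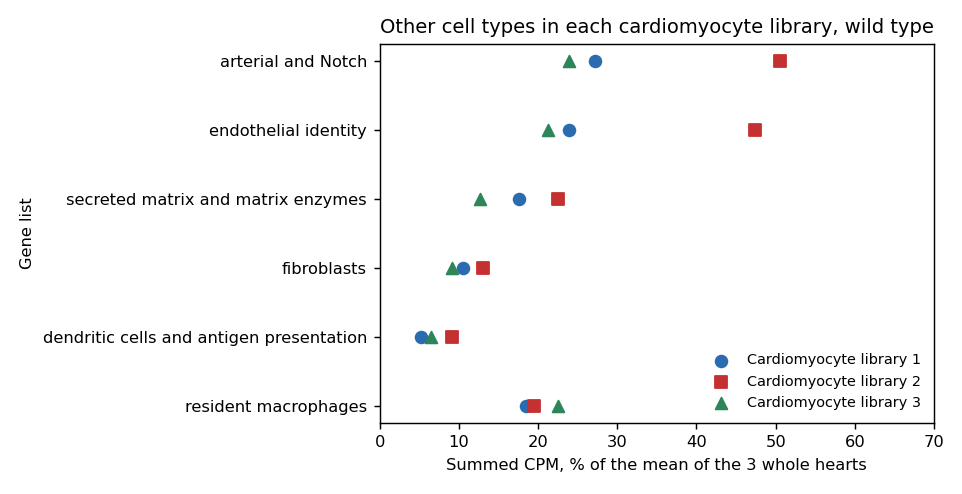
Summed CPM of 6 gene lists in each wild-type cardiomyocyte library, as a percent of the mean of the 3 whole-heart libraries. Whole-heart library 1 has the highest sum in all 6 lists, which lowers the percents. Cardiomyocyte library 2 holds 47.4% of the endothelial level against 23.9% and 21.3% in cardiomyocyte libraries 1 and 3, while the macrophage list is within 18.5% to 22.5%.

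Of 24 genes of myocyte structure 13 were called higher and none lower, with a median of 0.46, and scaling by library size alone gave 3 higher and 5 lower. Ttn, the giant spring protein titin, was at 2108, 4522 and 4578 CPM in whole heart and 10427, 9652 and 9512 CPM in cardiomyocytes (1.40 ± 0.28, adjusted p = 0.00725). Nebl, which binds thin filaments at the Z disc, was at 162, 249 and 259 CPM against 676, 600 and 651 CPM (1.52 ± 0.19, adjusted p = 0.00145). Myh6, the adult myosin heavy chain, was at 17818, 21111 and 20639 CPM against 33734, 30752 and 33576 CPM (0.72 ± 0.15), but at 0.07 under library size alone. In all 3 the lowest value was whole-heart library 1, and the groups did not overlap. The other 11 genes of the list did not pass, among them Tnnt2, cardiac troponin T (0.48 ± 0.21), and Myl2, the ventricular light chain (0.30 ± 0.20).

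In the calcium list 13 of 17 tested were higher in cardiomyocytes, with a median of 0.81 (5 higher and 3 lower under library size alone). Ryr2, the calcium release channel, was at 771, 1474 and 1431 CPM against 3923, 3348 and 3399 CPM (1.54 ± 0.24, adjusted p = 0.00321). Atp2a2, the SERCA pump that refills the store, was at 8423, 11718 and 11197 CPM against 18144, 17838 and 19038 CPM (0.81 ± 0.17, and 0.16 under library size alone). Of 21 ion channel and junction genes 12 were higher in cardiomyocytes (5 higher and 4 lower under library size alone), among them the junction genes Ctnna3 (1.47 ± 0.17) and Dsg2 (1.23 ± 0.12). Kcna5 was the 1 gene of that list higher in whole heart, at 37.5, 30.7 and 35.5 CPM against 5.51, 14.7 and 6.3 CPM (−1.97 ± 0.35). Among 15 cardiac transcription factors 6 were higher (2 higher and 5 lower under library size alone), including Myocd, the coactivator of muscle genes (1.39 ± 0.19), and Esrrg, a nuclear receptor of mitochondrial genes (1.45 ± 0.20). Nkx2-5 (−0.51 ± 0.37) and Gata4 (0.29 ± 0.12) did not pass.

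Of 24 fatty acid oxidation genes 14 were higher in cardiomyocytes, with a median of 0.53, and 1 was higher and 5 lower under library size alone. Pdk4, which shuts pyruvate out of the mitochondrion, was at 357, 378 and 386 CPM against 2223, 786 and 1385 CPM. Its 3 cardiomyocyte values were all above the hearts but differed widely among themselves (1.97 ± 0.33, adjusted p = 0.00372; adjusted p = 0.0595 without whole-heart library 1). Of 36 nuclear genes of oxidative phosphorylation 6 were higher and 30 did not pass, with a median of 0.17; library size alone gave none higher and 19 lower. That count is close to the share among all genes tested, and without whole-heart library 1 it was 11 higher and 6 lower (median 0.03). Of the 13 protein genes that the mitochondrial genome encodes 12 were higher, with a median of 1.42, and under library size alone 11 were higher and none lower. mt-Co1, a subunit of cytochrome oxidase, was at 82430, 91634 and 92254 CPM against 157760, 225980 and 163670 CPM (1.04 ± 0.19). mt-Nd5, a subunit of complex I, was at 20290, 21963 and 21488 CPM against 61512, 91418 and 65359 CPM (1.78 ± 0.19, adjusted p = 0.000977). Cardiomyocyte library 2 was the highest in both. The mitochondrial share of counts was 43.7% ± 5.54 in cardiomyocytes and 29.1% ± 1.97 in whole heart (SD, n = 3; exact two-sided permutation p = 0.1, the smallest that 3 against 3 allow). Nuclear copies of mitochondrial genes share reads with these, so single values are uncertain. Of 24 ribosomal protein genes 13 were higher in whole heart and none in cardiomyocytes, with a median of −0.48. Rps27a, for example, was at 98.3, 97.8 and 91.7 CPM against 51.4, 58.9 and 52.4 CPM. Under library size alone all 24 were higher in whole heart, but in Q150X only 2 of 24 were, with a median of −0.17.

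**Figure D3:**
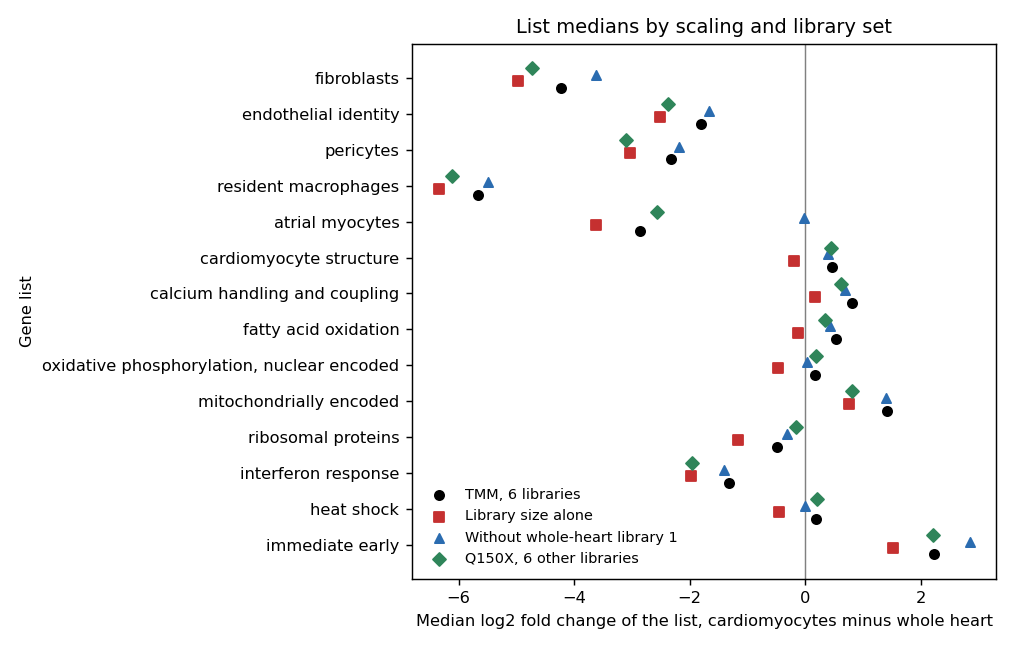
Median log2 fold change (cardiomyocytes minus whole heart) of 14 gene lists under TMM scaling of all 6 libraries, library size alone, without whole-heart library 1, and in 6 Q150X libraries. Stromal and immune medians are below 0 in each; the cardiomyocyte structure median is 0.46 with TMM and −0.19 with library size alone, and the atrial median moves from −2.87 to −0.02 without whole-heart library 1.

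Immediate early genes were higher in the cardiomyocyte libraries. Of 24 tested (of 25), 17 were higher in cardiomyocytes and none was lower, with a median of 2.23. The 4 called genes with the smallest p were Atf3, Btg2, Socs3 and Nr4a3. Their windows, 250 bases before to 50 after the start in RefSeq on GRCm38.p6, are printed. This list was chosen from these data, as the response list with the largest share called higher in cardiomyocytes. That its genes moved together is therefore part of the choice. The submitters' processing notes name GRCm39 for the series, so these coordinates belong to the RefSeq table and not to the counts. Each is read 5′ to 3′ along the gene, at chr1:191183284-191183583 (Atf3, minus strand), chr1:134079106-134079405 (Btg2, minus), chr11:117969317-117969616 (Socs3, minus) and chr4:48045055-48045354 (Nr4a3, plus). Capitals mark matches to the motifs searched.
Atf3: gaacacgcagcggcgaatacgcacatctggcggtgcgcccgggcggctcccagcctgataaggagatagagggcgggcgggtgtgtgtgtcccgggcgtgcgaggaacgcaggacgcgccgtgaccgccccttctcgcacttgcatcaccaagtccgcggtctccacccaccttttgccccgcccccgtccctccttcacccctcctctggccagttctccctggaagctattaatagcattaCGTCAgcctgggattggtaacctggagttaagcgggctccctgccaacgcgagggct
Btg2: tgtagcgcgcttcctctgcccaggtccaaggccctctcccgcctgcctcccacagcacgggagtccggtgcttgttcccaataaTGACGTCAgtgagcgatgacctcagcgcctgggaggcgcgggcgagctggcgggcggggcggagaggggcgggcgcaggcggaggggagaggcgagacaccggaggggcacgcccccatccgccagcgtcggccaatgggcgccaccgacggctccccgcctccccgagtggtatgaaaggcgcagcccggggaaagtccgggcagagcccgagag
Socs3: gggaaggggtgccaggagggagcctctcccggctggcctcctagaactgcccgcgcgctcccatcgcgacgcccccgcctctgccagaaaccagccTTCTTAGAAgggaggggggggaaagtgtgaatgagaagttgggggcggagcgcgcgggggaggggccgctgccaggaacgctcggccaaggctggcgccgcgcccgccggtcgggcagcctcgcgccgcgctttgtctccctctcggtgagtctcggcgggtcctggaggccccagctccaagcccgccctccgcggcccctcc
Nr4a3: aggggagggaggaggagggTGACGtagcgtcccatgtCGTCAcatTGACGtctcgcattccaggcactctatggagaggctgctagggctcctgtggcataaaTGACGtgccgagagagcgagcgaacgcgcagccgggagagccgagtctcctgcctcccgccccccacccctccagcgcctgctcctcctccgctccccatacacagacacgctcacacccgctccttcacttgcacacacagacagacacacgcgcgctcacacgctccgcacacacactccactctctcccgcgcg

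The motifs were searched on both strands: the cAMP response element TGACGTCA, its half-site TGACG (added after the sequences were seen, and part of the full element), the AP-1 site TGANTCA, the STAT site TTCNNNGAA, the TATA box TATAAA and the CArG box of serum response factor. Btg2 holds a full cAMP element whose first base is 166 before the start, which 1.79% of 32851 promoters of the same length also hold. Atf3 has 1 half-site, 7 before the start, and Nr4a3 has 4, at 231, 213, 205 and 147 before it; 20.8% of promoters hold at least 1. Socs3 holds a STAT match at 154 before the start, a motif found in 8.3% of promoters. Over 14 of the 17 called genes whose promoters were searched, the half-site was in 8, the full element in 2, the STAT site in 2, the TATA box in 2 (13.6% of all promoters), the CArG box in 1 (1.63%) and the AP-1 site in 0 (7.81%). These are matches of letters in a short window and not measured sites.

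Atf3, a stress-induced repressor, was at 14.1, 13.9 and 10.8 CPM in whole heart and 222, 267 and 301 CPM in cardiomyocytes. Both groups were tight and far apart (4.35 ± 0.19, adjusted p = 4.1e-05). Btg2, an antiproliferative cofactor of mRNA decay, was at 69.8, 38.3 and 32.1 CPM against 423, 478 and 468 CPM (3.29 ± 0.29, adjusted p = 0.000516). Socs3, the feedback inhibitor of gp130 cytokine signalling, was at 6.4, 3.04 and 2.19 CPM against 82.7, 48 and 45.7 CPM (3.92 ± 0.42, adjusted p = 0.000977). Nr4a3, an orphan nuclear receptor, was at 14.1, 8.78 and 6.73 CPM against 77.2, 51.5 and 53 CPM (2.62 ± 0.29, adjusted p = 0.00108). Library 1 was the highest heart in all 4 genes and did not reach the cardiomyocyte range in any.

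Among AP-1 and Egr genes, Fos was at 17.5, 2.69 and 3.03 CPM against 362, 424 and 476 CPM (5.76 ± 0.74, adjusted p = 0.00158; 7.20 without whole-heart library 1). Egr1, the zinc finger activator, was at 40.8, 4.76 and 4.57 CPM against 515, 484 and 527 CPM (4.92 ± 0.92, adjusted p = 0.00768; 6.77 without that library). Junb was at 43.5, 8.51 and 8.34 CPM against 133, 138 and 135 CPM, and Jun at 118, 41.2 and 41.6 CPM against 332, 437 and 494 CPM. In each of these 4 genes whole-heart library 1 was between the other hearts and the cardiomyocytes. Myc rose from 4.42, 1.27 and 1.61 CPM to 27.1, 18 and 19.2 CPM. Zfp36, which destabilises cytokine mRNA, was at 46.7, 15.8 and 14.6 CPM against 205, 188 and 200 CPM (2.94 ± 0.43). The weakest call was Nr4a1 (1.50 ± 0.50, adjusted p = 0.0492), which was lost when any of whole-heart library 2, whole-heart library 3 or a cardiomyocyte library was left out. Dusp1 was called although whole-heart library 1, at 148 CPM, lay within the cardiomyocyte range of 141 to 260. Not every member moved: Fosl2, Ier3, Egr3, Nr4a2, Klf2, Klf4 and Klf6 did not pass, with log2 fold changes from −1.20 ± 0.56 for Klf2 to 1.84 ± 0.74 for Egr3. Without whole-heart library 1 the list had 18 higher and none lower, with a median of 2.85. Under library size alone 11 were higher and 1 was lower.

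**Figure D4:**
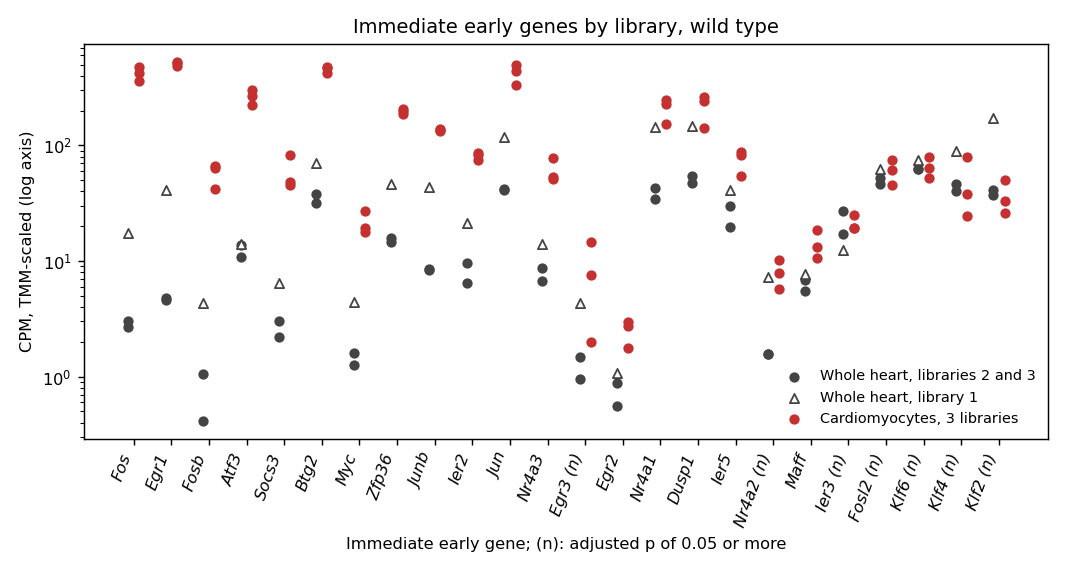
CPM (log axis) of 24 immediate early genes in each wild-type library; open triangles are whole-heart library 1, dark points whole-heart libraries 2 and 3, red points the 3 cardiomyocyte libraries, and (n) marks genes that were not called. Fos runs from 2.69 to 17.5 in whole heart and from 362 to 476 in cardiomyocytes, and library 1 is the highest heart in most genes.

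Several other genes joined them among the largest differences. Ccn1, a matricellular target of the Hippo pathway, was at 42.2, 24.5 and 28.5 CPM against 528, 548 and 567 CPM (4.11 ± 0.22, adjusted p = 5.44e-05). Gadd45b and Gadd45g, stress sensors that act on MAP kinase cascades, had 4.01 ± 0.22 and 3.45 ± 0.37. Cmtm5, a gene of a chemokine-like family, was at 0.793, 0.384 and 0.68 CPM against 16, 30.4 and 37.2 CPM (5.48 ± 0.41, adjusted p = 0.000311). The deubiquitinase gene Otud1 was at 30.4, 36.2 and 21 CPM against 248, 238 and 240 CPM (3.05 ± 0.21). In the cardiac stress list 6 of 18 were higher in cardiomyocytes and 2 were higher in whole heart (3 and 5 under library size alone). Xirp1, an actin-binding protein of intercalated discs, was at 163, 222 and 184 CPM against 575, 520 and 594 CPM (1.57 ± 0.15). Ankrd1, a stretch-responsive cofactor of the Z disc, was at 338, 297 and 336 CPM against 918, 883 and 803 CPM (1.42 ± 0.13). Nppb, the ventricular natriuretic peptide, was at 59.4, 148 and 113 CPM against 251, 218 and 198 CPM (1.06 ± 0.29), and lost its call without whole-heart library 3 or any single cardiomyocyte library. Nppa, Myh7 and Acta1, the fetal genes of that list, did not pass.

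Other stress lists had few calls or calls in both directions. For scale, 13.5% of all genes tested were higher in cardiomyocytes and 18.4% in whole heart. Counts near those shares say nothing particular about the members of a list. Of 20 heat shock genes 4 were higher in cardiomyocytes (Hspb1, Hspb8, Hspa4l and Dnajb4, from 0.48 to 0.88) and the median was 0.19. Hspb1, Hspa4l and Dnajb4 lost their calls without whole-heart library 3 or any single cardiomyocyte library; the inducible Hspa1a (−0.69 ± 0.48) and Hspa1b (−1.82 ± 0.72) did not pass. Under library size alone none was higher and 8 were lower, and without whole-heart library 1 the counts were 5 and 3. Of 18 chaperones of the endoplasmic reticulum 2 were higher in cardiomyocytes and 4 in whole heart. Those counts were 4 and 9 without whole-heart library 1, and 1 and 13 under library size alone. In the integrated stress response 5 of 20 genes were higher in cardiomyocytes and 7 in whole heart (3 and 8 under library size alone). Ddit3, the factor CHOP, was at 9.09, 9.31 and 9.33 CPM against 33.4, 28.7 and 50.6 CPM (2.02 ± 0.22, adjusted p = 0.00101). Ppp1r15a, the GADD34 phosphatase subunit, was at 17.5, 18.1 and 18.9 CPM against 78.5, 79.1 and 79.7 CPM (2.12 ± 0.12, adjusted p = 5.57e-05). The 3 libraries of each group were almost equal for that gene. The pseudokinase gene Trib3 went the other way (−3.38 ± 0.52), as did Phgdh, the first enzyme of serine synthesis, whose pooled ratio of 52.6 rests on 2 cardiomyocyte counts (95% counting interval 14.3 to 438). Among 17 Nrf2 genes 6 were higher in cardiomyocytes and 1, G6pdx, in whole heart (1 and 3 under library size alone), and the metallothionein Mt1 was at 60.2, 55 and 38.6 CPM against 119, 94.3 and 121 CPM.

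Interferon response genes were higher in whole heart in 14 of 19 and higher in cardiomyocytes in none, with a median of −1.32. Bst2, the antiviral tether, was at 17.6, 14.4 and 12.6 CPM against 2.31, 2.58 and 1.23 CPM (−2.88 ± 0.30). Cytokine and NF-kB genes were higher in whole heart in 6 of 18 and in cardiomyocytes in 3: the neutrophil chemokines Cxcl1 and Cxcl2 and the IκB family member Nfkbiz. Cxcl2 was at 0, 0.118 and 0.0618 CPM against 3.72, 1.2 and 0.796 CPM, with almost no reads in whole heart. Cxcl1 lost its call without whole-heart library 2 or 3, or without cardiomyocyte library 1 or 2. Autophagy and lysosome genes were higher in cardiomyocytes in 6 of 16 and in whole heart in none, but under library size alone 2 were higher and 5 lower. The muscle ubiquitin ligases in that list were Fbxo32, atrogin, at 77.2, 98.7 and 134 CPM against 362, 250 and 303 CPM, and Trim63, MuRF, at 94.6, 136 and 142 CPM against 373, 281 and 370 CPM. Of 26 hypoxia and glycolysis genes 6 were called in each direction, and under library size alone none was higher in cardiomyocytes and 14 were higher in whole heart. Cell cycle genes were called in 4 of 17, all higher in whole heart, with cyclin D1 (Ccnd1) at 34.5, 31.6 and 37.6 CPM against 11.5, 11.6 and 7.67 CPM. Among all genes tested 18.4% were higher in whole heart and 13.5% in cardiomyocytes. The hypoxia counts and the 4 cell cycle calls are near those shares.

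The same contrast was fitted alone in 6 uninjured libraries of the Q150X genotype (labelled ho), which share no sample with the wild-type fit. Of 14589 genes tested, 2236 (15.3%) were higher in whole heart and 960 (6.58%) in cardiomyocytes. Whole-heart library 1 of Q150X also stood apart. Mean squared differences, in units of counting noise, were 212 and 204 from its other hearts and 13.7 between those. Without it 3438 genes were higher in whole heart and 2505 in cardiomyocytes. Anything the whole-heart libraries numbered 1 of both genotypes share would be part of the agreement below. Of the 2673 wild-type genes higher in whole heart, 2561 were tested there, 2544 had the same direction (99.3%) and 1855 were called in it (72.4%). Of the 1956 higher in cardiomyocytes, 1948 were tested, 1905 had the same direction (97.8%) and 786 were called (40.3%). None was called in the opposite direction in either set, and the 30 named genes with the largest wild-type changes were all called in the same direction. Among genes that repeated, Fos had 6.94, Atf3 4.11, Ccn1 3.92, F13a1 −6.22, Cd163 −5.62, Dcn −4.52 and Pecam1 −2.56 in Q150X. Other named calls did not repeat. No endocardial, lymphatic, pericyte, smooth muscle or cytokine gene was called higher in Q150X cardiomyocytes. The wild-type calls of Edn1, Prox1, Abcc9, Pln, Synpo2, Cxcl1, Cxcl2 and Nfkbiz were therefore not made in Q150X. Of the 24 immediate early genes 15 were higher and none lower there, with a median of 2.21. Across the 14099 genes tested in both, Pearson's r of the fold changes was 0.899, as a description over genes that are not independent replicates. A fit of all 12 libraries with an interaction term tested whether the contrast differed between genotypes. edgeR called 0 of 15828 genes (0%), with 516 at an unadjusted p under 0.05 (3.26%) and a smallest adjusted p of 1. That does not show that the genotypes are alike, since 3 libraries a group limit what the test can call.

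**Figure D5:**
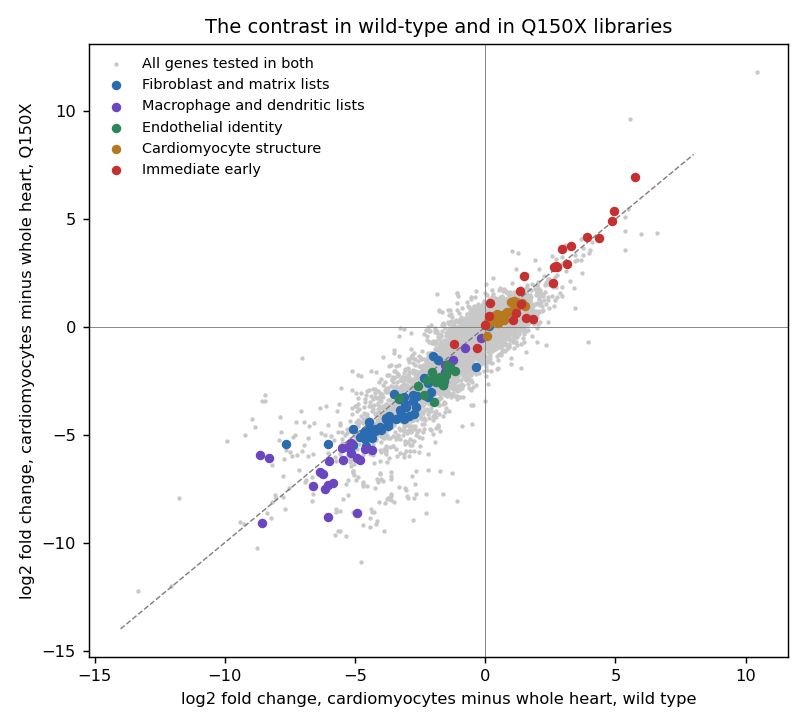
Log2 fold change (cardiomyocytes minus whole heart) of 14099 genes in wild type (horizontal) and in Q150X (vertical), with 5 groups of lists coloured and the line of equal values dashed. Stromal and immune genes lie low in both genotypes and most immediate early genes lie high in both, with Fos at 5.76 and 6.94.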

How the data were processed

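The aligner settings, the counting tool and the strand setting could not be read from the labels or headers. The submitters' processing notes name HISAT2, kallisto and GRCm39. The deposited table holds whole-number counts for 57010 genes in 43 libraries, with totals that differ between libraries. Symbols matched 52029 gene IDs.

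The 3 whole-heart and 3 cardiomyocyte wild-type libraries were fitted with edgeR 4.0.16 (quasi-likelihood, robust, TMM, filterByExpr with a minimum count of 10 and a total of 15) in R 4.3.3, with Benjamini-Hochberg adjustment over 14491 genes. The standard error is the fold change divided by the root of F. Alternatives were DESeq2 1.42.0, limma 3.58.1 voom with library weights, other scalings, no filter, a fit of 12 libraries, a replicate block and each library left out. Counts for 14491 genes were simulated from the means, depths and spread of these libraries, with 96 genes changed 2-fold and 99 changed 4-fold. Changes went up and down equally, and 37.5% of 2-fold and 85.9% of 4-fold changes were recovered. The real contrast called 4629 genes, with sizes unequal by direction, so these shares hold for the simulated setting only.

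Gene lists and members were chosen with earlier results of these data known. Named genes are the first 4 members of each list, up to 4 further called members with the smallest p, the 15 with the largest called change in each direction (mean of at least 16 CPM in the higher group, groups not overlapping), Vegfa, Kdr and Flt1; others are named as exceptions to a list, after their values were seen. A gene with no cardiomyocyte count was bounded with 3 counts over the group, and such bounds and counting intervals cover counting error only. Transcript length is that of the longest transcript in a GRCm38 annotation, matched for 98.7% of genes tested. Injured and endothelial libraries were not analysed here.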

Additional observations from a re-analysis of the deposited data

How the results depend on the processing

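Of 340 named genes tested, 276 were called, and 161 of those kept their call in all 14 alternatives. Scaling by library size alone gave 253 genes higher in cardiomyocytes and 7377 higher in whole heart, with 50 and 2218 at least 4-fold, and in Q150X 143 and 3900. Voom with library weights gave 3071 higher in cardiomyocytes. Leaving out single libraries gave 964 to 2597 higher in cardiomyocytes (lowest without cardiomyocyte library 3, highest without whole-heart library 1) and 1603 to 2792 higher in whole heart; in Q150X the ranges were 230 to 2505 and 1297 to 3438, both highest without its whole-heart library 1. The replicate block gave 1337 and 2095 genes in wild type and 280 and 1589 in Q150X. Whether replicate numbers pair a heart with a cell isolation is not known. Deviations from group means correlated at −0.084, −0.07 and −0.022 between same-numbered wild-type libraries. Differently numbered wild-type pairs had −0.038 to 0.075, so these values cannot decide it. Without both whole-heart libraries numbered 1, an alternative chosen after seeing the data, the genotype interaction called 1 gene. Under library size alone these genes changed sign: 2900097C17Rik −0.0843, Acadvl −0.0669, Actn2 −0.22, Atp5a1 −0.15, Casq2 −0.0011, Ctsl −0.0815, Fgf1 −0.0171, Gabarapl1 −0.21, Gclm −0.11, Hadh −0.0328, Hspb1 −0.19, Hspb8 −0.0092, Kcnq1 −0.16, Lamp2 −0.0034, Malat1 −0.54, Sdha −0.0375 and Sqstm1 −0.10. Leaving out single libraries moved Kcnh2 between −0.443 (without whole-heart library 2) and 0.363 (without whole-heart library 1) and Myl7 between −8.24 and 7.21 in those same settings, with no Myl7 count in the hearts that remain without library 1; voom gave Myl7 4.54. The cause was not tested. Depth limits genes under about 1 CPM, and 31239 genes had no count in any of the 6 libraries.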

Other observations

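Of 8 nuclear noncoding RNAs tested 2 were higher in cardiomyocytes and 2, Meg3 and Rian of one imprinted cluster, were higher in whole heart. Among all genes tested these shares were 13.5% and 18.4%, so the counts say little about the list. Under library size alone none was higher in cardiomyocytes and 4 were higher in whole heart. In Q150X 6 were tested, with none higher in cardiomyocytes and 2 in whole heart. Meg3 was at 13.4, 13.2 and 13.5 CPM in whole heart and 1.18, 1.55 and 0.651 CPM in cardiomyocytes (−3.58 ± 0.31, adjusted p = 0.000481). Rian kept 14.3% of its level. All 4 Y-linked genes tested were higher in cardiomyocytes, such as Ddx3y, an RNA helicase, at 41.5, 69.8 and 60.2 CPM against 138, 146 and 153 CPM (1.35 ± 0.19). Under library size alone 1 of the 4 was called. Xist, the X-linked member of that list, was below the filter, at 0.113, 0.0591 and 0.185 CPM against 0.235, 0.172 and 0 CPM. Each of the 6 libraries thus held Ddx3y RNA and almost no Xist. Of 18 clock genes 3 were higher in cardiomyocytes and 1 in whole heart, or 1 and 6 under library size alone. The 3 are near the 13.5% of all genes tested that were higher in cardiomyocytes. The repressor Bhlhe40 was at 35.7, 47.1 and 49.3 CPM against 158, 126 and 160 CPM (1.75 ± 0.17), and Cry1 at 10.6, 17 and 11.7 CPM against 5.65, 6.19 and 5.43 CPM (−1.18 ± 0.22). Growth factor genes of the stroma were higher in whole heart in 12 of 19, among them Igf1 at 11.9, 9.57 and 13.2 CPM against 2.87, 2.62 and 3.04 CPM.

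Calls varied with transcript length. Genes tested were put in 5 equal bins by length. In the bin of the shortest, up to 1735 bases, 4.26% were higher in cardiomyocytes and 16.6% in whole heart. In the longest, from 5197 bases, 26% were higher in cardiomyocytes and 17.6% in whole heart. The median log2 fold change went from −0.18 to 0.16.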
